A study of Mus musculus with 8 samples.

Results

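The transcription factor genes Figla, Nobox, Sohlh1, Sohlh2 and Lhx8, the growth factor gene Gdf9, the zona pellucida genes Zp1, Zp2 and Zp3 and the Kit ligand gene Kitl were followed in allele-resolved CUT&RUN reads of mouse primordial germ cells (PGCs), from which eggs and sperm later arise. They were chosen by name as genes of egg formation, and all 10 were found among the 21352 genes of the files, 20368 of which are on chromosomes 1 to 19. CUT&RUN uses an antibody to bring a nuclease to chromatin that carries its target, and sequences the DNA that is cut free. The antibody was against H3K27me3, the mark of Polycomb repressive complex 2 that accompanies silenced genes, or was IgG, a control for cutting without a target. The H3K27me3 libraries were female, 1 of E11.5 and 1 of E12.5. Of the IgG libraries, that of E11.5 was male and those of E12.5 and E13.5 were female. Every animal was a B6 x Cast hybrid that carried Oct4-eGFP+/-. Females were Xist KO/+ and males were Xist KO/Y, so the H3K27me3 and the IgG cells shared the Xist deletion and the reporter. Each library was made from sorted cells of several embryos of the same sex that had been pooled, and it was the one library of its group. A second H3K27me3 replicate that the labels list for each stage was not analysed here.

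In the ovary FIGLA, NOBOX, SOHLH1, SOHLH2 and LHX8 are transcription factors of early oocytes that are needed for primordial follicles to form or to survive. FIGLA is known to activate the zona genes, whose products make the coat around the egg. GDF9 is secreted by the growing oocyte and acts on the granulosa cells around it, and KITL is made by somatic cells and acts on the KIT receptor of germ cells. At the stages studied here PGCs have reached the gonad and have not yet formed follicles.

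With 1 library in each group, no test could take the spread between replicates into account, and the tests of allele shares compare the reads of these libraries, not the conditions. Levels are in RPM, the reads of both alleles scaled to 1000000 reads on chromosomes 1 to 19, and values in brackets after a ratio or share are exact 95% intervals that cover counting error only. The H3K27me3 libraries held 2356356 (E11.5) and 5020062 (E12.5) such reads. The IgG libraries held 1357583 reads in E11.5 males, 1515532 in E12.5 females and 5705401 in E13.5 females. A gene was counted as higher or lower than IgG when the ratio of levels, with a pseudocount of 1 RPM, was at least 2-fold, among genes with 20 reads or more summed over the pair. Of the 10 genes, 9 passed that minimum in every pair, and Lhx8 did not. A mark on fewer cells and less mark per cell cannot be told apart in these pooled cells.

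Reference lists, chosen with earlier results of these data known, were set beside the 10 genes. Over all genes, 17.2% were higher than IgG and 29.7% lower at E11.5, and 15.2% were higher at E12.5. All 10 genes of a list of developmental regulators that Polycomb silences were higher than IgG at both stages (median log2 ratio 3.02 at E11.5 and 2.31 at E12.5). None of the housekeeping genes tested was higher, and 6 of 6 at E11.5 and 6 of 8 at E12.5 were lower. Among 8 germ cell markers tested at E12.5, 0 were higher and 2 were lower (median -0.96). Of 8 somatic gonad markers, 7 were higher (median 2.06). Of 5 blood and endothelium markers, 1 was higher and 1 lower. Over all genes the median at E12.5 was -0.54, and 15.2% were higher and 29.5% lower. These marker ratios describe a repressive mark and not RNA, and the contribution of other cell types to the levels given here was not tested.

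Promoter sequence from RefSeq (GRCm38.p6, from 250 bases before to 50 after the start) matched 7 of the 10 genes. For Figla, Nobox and Kitl the start used lies inside the gene span given below. The windows of Figla and Nobox lie wholly within that span. The stretches of 4 genes are shown because the levels or shares of these genes are singled out below. No relation between promoter sequence and levels or shares was tested. Zp3 and Kitl were at least 2-fold above IgG of the same stage at both stages, the H3K27me3 reads of Nobox leaned to 1 allele, and Sohlh2 lay below IgG. Capitals mark CG dinucleotides, the bases whose density distinguishes the CpG islands on which Polycomb complexes are known to gather. The Zp3 promoter (chr5:135979855-135980154, plus strand) holds 7 of them, the median of the 32851 promoters in the table. The Kitl promoter (chr10:100015571-100015870, plus strand) holds 28, and 85.8% of promoters hold fewer. The Nobox promoter (chr6:43309505-43309804, minus strand) holds 13, and the Sohlh2 promoter (chr3:55181794-55182093, plus strand) holds 17.
Zp3: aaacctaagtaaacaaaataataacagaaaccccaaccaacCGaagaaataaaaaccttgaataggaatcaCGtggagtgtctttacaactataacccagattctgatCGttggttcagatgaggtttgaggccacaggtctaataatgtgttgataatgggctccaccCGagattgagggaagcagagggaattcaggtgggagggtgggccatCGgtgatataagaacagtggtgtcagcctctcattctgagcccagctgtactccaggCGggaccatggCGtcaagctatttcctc
Kitl: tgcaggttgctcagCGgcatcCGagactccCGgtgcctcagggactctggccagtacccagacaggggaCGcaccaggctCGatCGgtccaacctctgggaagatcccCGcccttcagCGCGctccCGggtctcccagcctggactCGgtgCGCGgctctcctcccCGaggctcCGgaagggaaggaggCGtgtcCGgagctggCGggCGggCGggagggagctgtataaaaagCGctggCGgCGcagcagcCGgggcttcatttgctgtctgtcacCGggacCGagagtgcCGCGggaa
Nobox: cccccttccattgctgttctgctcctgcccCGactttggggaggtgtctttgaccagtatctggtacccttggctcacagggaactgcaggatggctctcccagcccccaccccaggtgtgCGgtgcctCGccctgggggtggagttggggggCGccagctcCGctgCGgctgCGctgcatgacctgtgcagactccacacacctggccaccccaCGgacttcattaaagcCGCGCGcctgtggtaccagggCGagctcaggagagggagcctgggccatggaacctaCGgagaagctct
Sohlh2: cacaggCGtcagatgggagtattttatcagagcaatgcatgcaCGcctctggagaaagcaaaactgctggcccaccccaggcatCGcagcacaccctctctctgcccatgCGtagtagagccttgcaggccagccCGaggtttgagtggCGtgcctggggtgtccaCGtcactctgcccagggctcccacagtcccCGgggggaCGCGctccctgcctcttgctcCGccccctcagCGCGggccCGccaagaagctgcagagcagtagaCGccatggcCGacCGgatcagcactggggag
In the same window Figla held 16, Sohlh1 14 and Lhx8 4. CACGTG, a form of the E-box CANNTG that basic helix-loop-helix factors such as FIGLA, SOHLH1 and SOHLH2 recognise, is its own reverse complement and occurred 3 times in the Sohlh1 window, once in that of Zp3 and not in the other 5. It is present in 7.15% of all promoters of the table, and 0.0883% hold it 3 times or more. The reads were counted over whole genes, so they do not show where within a gene the mark lay.

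At E12.5 Kitl and Zp3 were highest relative to IgG, while Sohlh1, Sohlh2, Gdf9 and Zp1 had ratios below 1. Kitl and Zp3 were the 2 genes of the 9 tested that were at least 2-fold above IgG E12.5, and 15.2% of the 16526 genes tested were that much higher. None of the 9 was 2-fold lower, against 29.5% of all genes. At E11.5, 5 of 9 were higher than IgG from E11.5 males, where 17.2% of 15050 genes were, and none was lower, where 29.7% of genes were. These 5 were Figla, Sohlh1, Gdf9, Zp3 and Kitl. That count was 3 with IgG E12.5, with IgG E13.5 or with the 3 IgG libraries summed as the control, and Figla and Zp3 were among the 3 each time. Over all genes, 2322 of 15277 were higher with IgG E12.5, 2863 of 17031 with IgG E13.5 and 2704 of 17565 with the summed IgG. The median log2 ratio of all genes was -0.49 at E11.5 and -0.54 at E12.5, while the 9 genes had medians of 1.01 and 0.25. At each stage 8 of the 9 lay above the median of all genes. With scaling that sets the middle gene near a ratio of 1, 7 of 9 were higher at E11.5 and 4 of 9 at E12.5, with Nobox and Zp1 added at E11.5 and Figla and Nobox at E12.5. Under that scaling 4328 of all genes were higher and 792 lower at E12.5, in place of 2511 and 4881, and 3817 were higher and 1036 lower at E11.5, in place of 2591 and 4466.

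**Figure D1:**
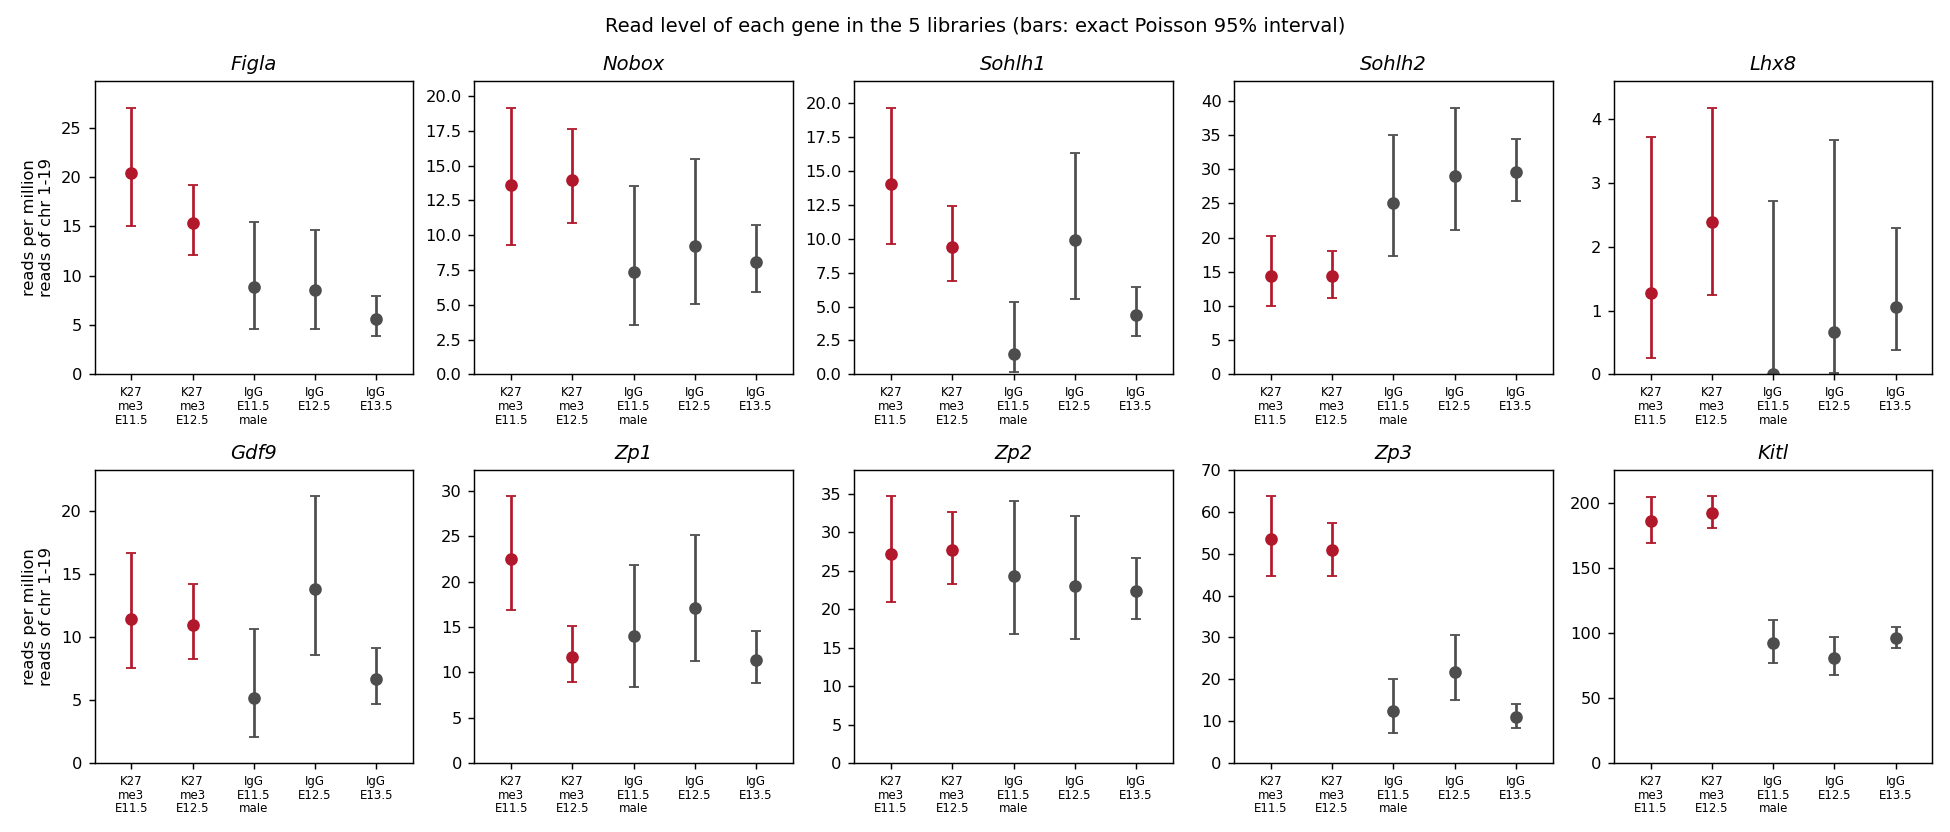
Read level of each of the 10 genes (RPM) in the H3K27me3 libraries (red) and the IgG libraries (grey), with exact Poisson 95% intervals. Zp3 and Kitl stand above every IgG library at both stages, and Sohlh2 stands below every one.

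Set against all 3 IgG libraries at once, Figla, Nobox, Lhx8, Zp2, Zp3 and Kitl had both H3K27me3 levels above every IgG level. That made 6 of 10, and 23.9% of the 18040 genes with at least 20 reads in the 5 libraries did so. This count sets counting error aside. For Figla, Nobox, Lhx8 and Zp2 the interval of the E12.5 ratio to IgG E12.5 included 1, and Lhx8 had 3 reads in H3K27me3 E11.5. Sohlh2 had both levels below every IgG level, as 49.7% of all genes did. Sohlh1, Gdf9 and Zp1 overlapped the IgG range.

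Figla, which encodes a basic helix-loop-helix factor of early oocytes (chr6:86016494-86020996), had 20.4 and 15.3 RPM in H3K27me3 E11.5 and E12.5, against 8.84, 8.58 and 5.61 in IgG E11.5, E12.5 and E13.5. Both H3K27me3 libraries were above all IgG libraries. The E11.5 level was 2.30 times that of E11.5 male IgG (interval 1.21 to 4.77), and the E12.5 level was 1.79 times that of E12.5 IgG (0.986 to 3.51). Against IgG E13.5, with 32 reads the deepest control for this gene, the E12.5 ratio was 2.73.

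Nobox, an oocyte homeobox gene (chr6:43303674-43310072), had 13.6 and 13.9 RPM in H3K27me3 E11.5 and E12.5, against 7.37, 9.24 and 8.06 in IgG E11.5, E12.5 and E13.5. The H3K27me3 levels at both stages were above every IgG level and nearly the same. The ratio over IgG at E11.5 was 1.84 (0.884 to 4.20), and that at E12.5 was 1.51 (0.843 to 2.90), under 2-fold with intervals that include 1. These reads were unevenly divided between alleles, as described with the shares.

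Sohlh1 and Sohlh2 encode related basic helix-loop-helix factors of germ cells, and their levels lay on opposite sides of IgG E13.5. Sohlh1 (chr2:25842995-25847248) had 14.0 and 9.36 RPM in H3K27me3 E11.5 and E12.5, against 1.47, 9.90 and 4.38 in IgG E11.5, E12.5 and E13.5. The 3 IgG libraries themselves spanned the E12.5 H3K27me3 level. Its E11.5 ratio of 9.51 (2.43 to 81.8) rested on 2 reads in E11.5 male IgG. With IgG E12.5 in its place the log2 ratio was 0.46, against 2.60. At E12.5 the ratio was 0.946 (0.520 to 1.82).

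Sohlh2 (chr3:55182044-55209957) had 14.4 and 14.3 RPM in H3K27me3 E11.5 and E12.5, against 25.04, 29.0 and 29.6 in IgG E11.5, E12.5 and E13.5. It was the one gene of the 10 with less H3K27me3 signal than IgG in every pairing. The ratio at E11.5 was 0.576 (0.347 to 0.955), and that at E12.5 was 0.494 (0.335 to 0.736). With the pseudocount the log2 ratio at E12.5 was -0.97, short of 2-fold, and 31.2% of all genes had a lower one.

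Lhx8, a LIM homeobox gene (chr3:154306288-154330560), had 3 and 12 reads in H3K27me3 E11.5 and E12.5, against 0, 1 and 6 in IgG E11.5, E12.5 and E13.5. These correspond to 1.27 and 2.39 RPM with H3K27me3, and to 0, 0.660 and 1.05 RPM with IgG, where 0 reads allow up to 2.72 RPM (upper Poisson bound). Its IgG E13.5 level per kilobase of gene was 0.0432, and 7.17% of genes had less, against a median of 1.04 over all genes. Its E12.5 level was 3.62 times that of IgG E12.5 (0.536 to 155), which had 1 read, and 2.93 times that of the summed IgG (1.06 to 8.78), which had 7.

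Gdf9 (chr11:53430774-53437904) had 11.46 and 10.96 RPM in H3K27me3 E11.5 and E12.5, against 5.16, 13.9 and 6.66 in IgG E11.5, E12.5 and E13.5. The IgG values enclosed both H3K27me3 values. Its ratio at E11.5 was 2.22 (0.944 to 6.04), where the control had 7 reads, and that at E12.5 was 0.791 (0.470 to 1.38). The log2 ratio at E11.5 was 1.02 with male IgG and -0.25 with IgG E12.5. Gdf9 overlaps Uqcrq, a gene of the respiratory chain, by 58 bases, and reads of the shared stretch cannot be assigned to either.

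The zona genes differed among themselves. Zp3, which encodes the zona protein ZP3 (chr5:135980105-135988624), had 53.5 and 50.8 RPM in H3K27me3 E11.5 and E12.5, against 12.52, 21.8 and 11.04 in IgG E11.5, E12.5 and E13.5. The lower of its H3K27me3 levels was more than 2-fold above the highest IgG level. Its ratio at E11.5 was 4.27 (2.56 to 7.56), and that at E12.5 was 2.33 (1.62 to 3.46), and 87.7% of all genes had a lower ratio at E12.5. Against IgG E13.5 the E12.5 ratio was 4.6 (3.48 to 6.16).

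Zp2, for the zona protein ZP2 (chr7:120126762-120145291), had 27.2 and 27.7 RPM in H3K27me3 E11.5 and E12.5, against 24.3, 23.1 and 22.4 in IgG E11.5, E12.5 and E13.5. The H3K27me3 levels were above all IgG levels by a narrow margin. The ratio at E11.5 was 1.12 (0.723 to 1.76), and that at E12.5 was 1.20 (0.823 to 1.79). Zp1, for the protein that cross-links zona filaments (chr19:10914296-10920601), had 22.5 and 11.8 RPM in H3K27me3 E11.5 and E12.5, against 14.0, 17.2 and 11.4 in IgG E11.5, E12.5 and E13.5. Only the E11.5 H3K27me3 level stood above the IgG range. Its ratio at E11.5 was 1.61 (0.936 to 2.88), and that at E12.5 was 0.685 (0.425 to 1.13). The E12.5 log2 ratios of Gdf9, Zp1 and Sohlh1 were below 0 by library totals (-0.31, -0.51 and -0.07), and each was above 0 under the median scaling.

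Kitl, the largest of the 10 genes (chr10:100015615-100100416), gave the most precise measurement. It had 186 and 193 RPM in H3K27me3 E11.5 and E12.5, against 92.1, 81.2 and 96.2 in IgG E11.5, E12.5 and E13.5. Both H3K27me3 levels were about the same and well apart from the IgG levels. Its ratio at E11.5 was 2.02 (1.66 to 2.49), and that at E12.5 was 2.37 (1.97 to 2.89), and 88.6% of all genes had a lower ratio at E12.5. The 2-fold call was narrow at E11.5, where the log2 ratio was 1.01 with male IgG, 0.95 with IgG E13.5 and 0.996 with the summed IgG. Against IgG E13.5 the E12.5 ratio was 2.002, which with the pseudocount gave a log2 ratio of 0.99. The autosomal genes most like Kitl over the 5 libraries, by the distance between their log2 levels relative to IgG, were Pcdhb9 (distance 0.128), Clnk (0.131) and Olfr551 (0.149) of 14603 genes compared.

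**Figure D2:**
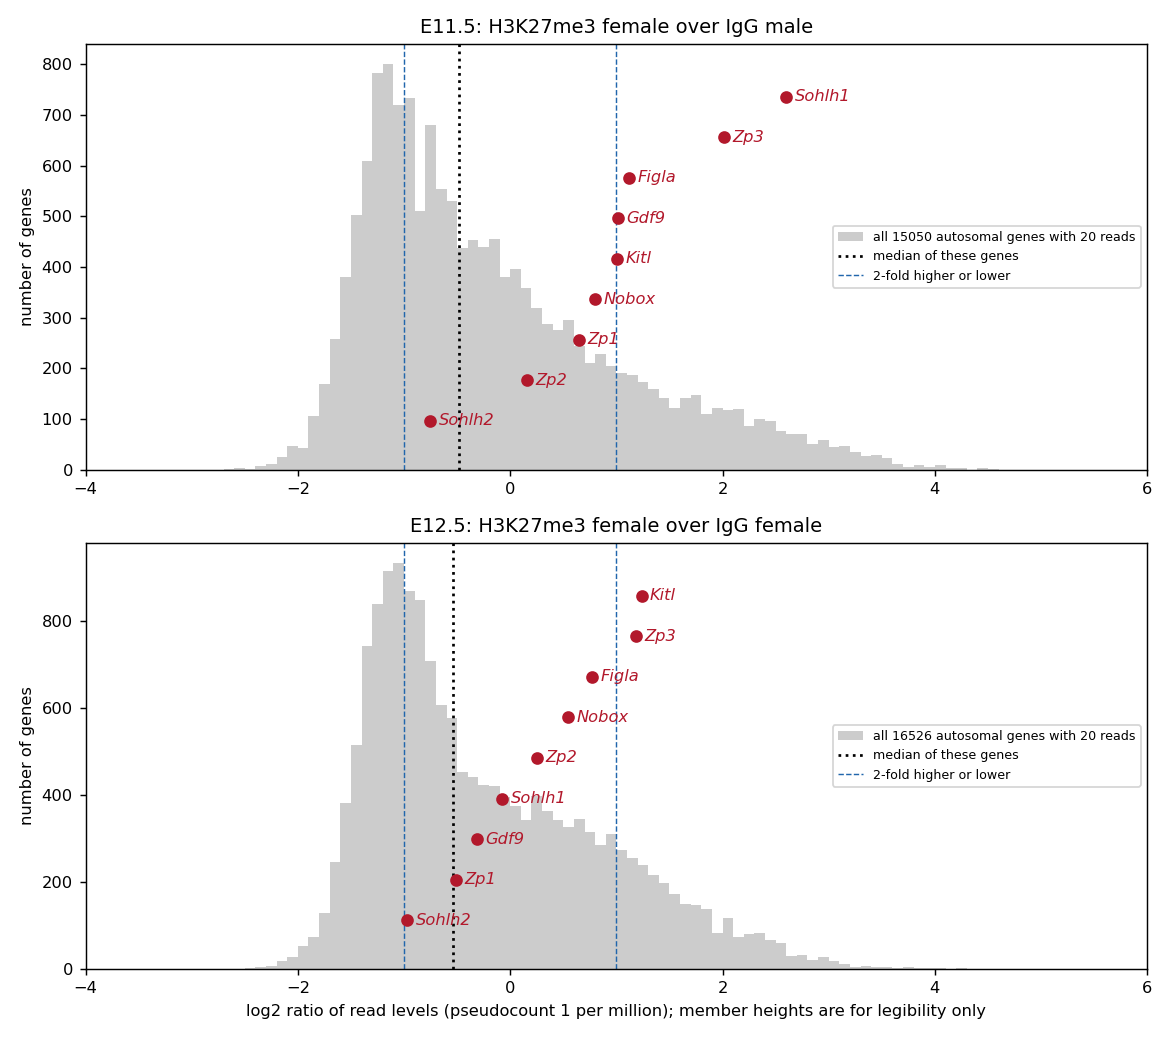
Log2 ratio of H3K27me3 over IgG of the same stage for all genes tested (grey histogram) and for 9 of the 10 genes (red points, whose height has no meaning). At E12.5 Kitl and Zp3 lie past the 2-fold line and Sohlh2 lies below the median of all genes.

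Levels per kilobase of gene correct for length but not for the density of strain variants, without which a read has no allele, so the order between genes is a description of these counts. Per kilobase, Zp3 had the highest H3K27me3 level at both stages. At E12.5 its density was 5.96 RPM per kilobase, followed by Figla with 3.18. Zp3 was 1.87 times Figla (1.45 to 2.45). Nobox, Kitl, Sohlh1, Zp1, Gdf9 and Zp2 followed between 2.37 and 1.495 with no neighbouring pair apart beyond its counting interval. Sohlh2 had 0.514, and Zp2 was 2.91 times as dense (2.17 to 3.93). Lhx8 was last with 0.0981, and Sohlh2 was 5.23 times as dense (2.82 to 10.6). At E11.5 the same 3 neighbouring steps, below Zp3, above Sohlh2 and above Lhx8, had intervals that exclude 1. IgG E13.5 density was between 0.968 and 1.80 in the genes other than Lhx8, with Zp1 highest.

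Between the stages, Zp1 was the gene of the 9 tested whose H3K27me3 level differed most. At E12.5 against E11.5, 0 of 9 genes were past 2-fold in either direction, where 1.54% of all genes were. Zp1 had the lowest ratio, 0.523 (0.354 to 0.772, an interval that excludes 1), and a log2 ratio of -0.88, and 1.22% of all genes had a lower one. The Zp1 level was 11.8 RPM at E12.5 and 22.5 at E11.5. Sohlh1 had a ratio of 0.669 (0.419 to 1.08) and Figla of 0.753 (0.518 to 1.103). Kitl had a ratio of 1.03 (0.923 to 1.16) and Zp3 of 0.95 (0.764 to 1.19). With 1 library at each stage, stage and library cannot be told apart. For comparison, the E13.5 and E12.5 IgG libraries, both made without the H3K27me3 antibody, differed 2-fold at 1 of the 9 genes, where 9.34% of all genes did. That gene was Sohlh1, with an E13.5 level 0.443 times that at E12.5, and Gdf9 and Zp3 had ratios of 0.481 and 0.507.

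The hybrid cross separates the reads of both parental genomes. The share of reads on the second allele was compared with the share of all reads of the library on chromosomes 1 to 19, which was 51.6% in H3K27me3 E11.5 and 50.9% in H3K27me3 E12.5, against 50.8%, 51.1% and 51.3% in IgG E11.5, E12.5 and E13.5. The strain behind each allele is not named in the files or labels. The exact binomial test used here compares reads within 1 library, not conditions, and its p-values carry a Benjamini-Hochberg adjustment over all genes with at least 10 reads.

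Nobox was the one gene of the set whose H3K27me3 reads leaned to an allele. The second allele held 18.8% of 32 reads at E11.5 (7.21% to 36.4%) and 27.1% of 70 reads at E12.5 (17.2% to 39.1%). In IgG it held 40.0% of 10 reads at E11.5, 42.9% of 14 at E12.5 and 50% of 46 at E13.5. Both H3K27me3 shares were below every IgG share. Against the share of all reads of the same H3K27me3 library, the exact binomial test gave adjusted p = 0.00354 at E11.5 and 0.000689 at E12.5. At E11.5 this made 1 of 9 genes that leaned to the first allele, where 4.98% of all genes did. At E12.5 it made 1 of 10, where 7.98% did. Set against IgG directly by Fisher's exact test, 0 of 9 genes differed at E12.5, and none had an unadjusted p under 0.05, where 2.35% of all genes differed. In that exact test the adjusted p of Nobox was 0.877 with 14 IgG reads, 0.172 against IgG E13.5 (unadjusted p = 0.0175) and 0.188 against the summed IgG (unadjusted p = 0.0225), so the difference from IgG did not pass the threshold.

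Counted by allele against the summed IgG, Nobox had an interval above 1 on the first allele and one that included 1 on the second. Ratios by allele use the same H3K27me3 reads as the shares, so they are no separate support for a lean. Of the 8578516 reads of the summed IgG, 5705401 came from IgG E13.5. Against IgG E12.5 alone, the first-allele ratio of E11.5 was 2.09 (0.919 to 5.34) and that of E12.5 was 1.92 (0.907 to 4.70), with intervals that include 1. Its first-allele level was 2.56 times the summed IgG level at E11.5 (1.49 to 4.34) and 2.36 times at E12.5 (1.51 to 3.70). The second allele had ratios of 0.662 (0.227 to 1.60) and 0.984 (0.529 to 1.78). By contrast Zp3 was above the summed IgG on both alleles at E12.5, 3.78-fold on the first (2.74 to 5.26) and 3.94-fold on the second (2.86 to 5.49). Kitl likewise had ratios of 2.15 on the first (1.88 to 2.46) and 1.999 on the second allele (1.75 to 2.29).

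**Figure D3:**
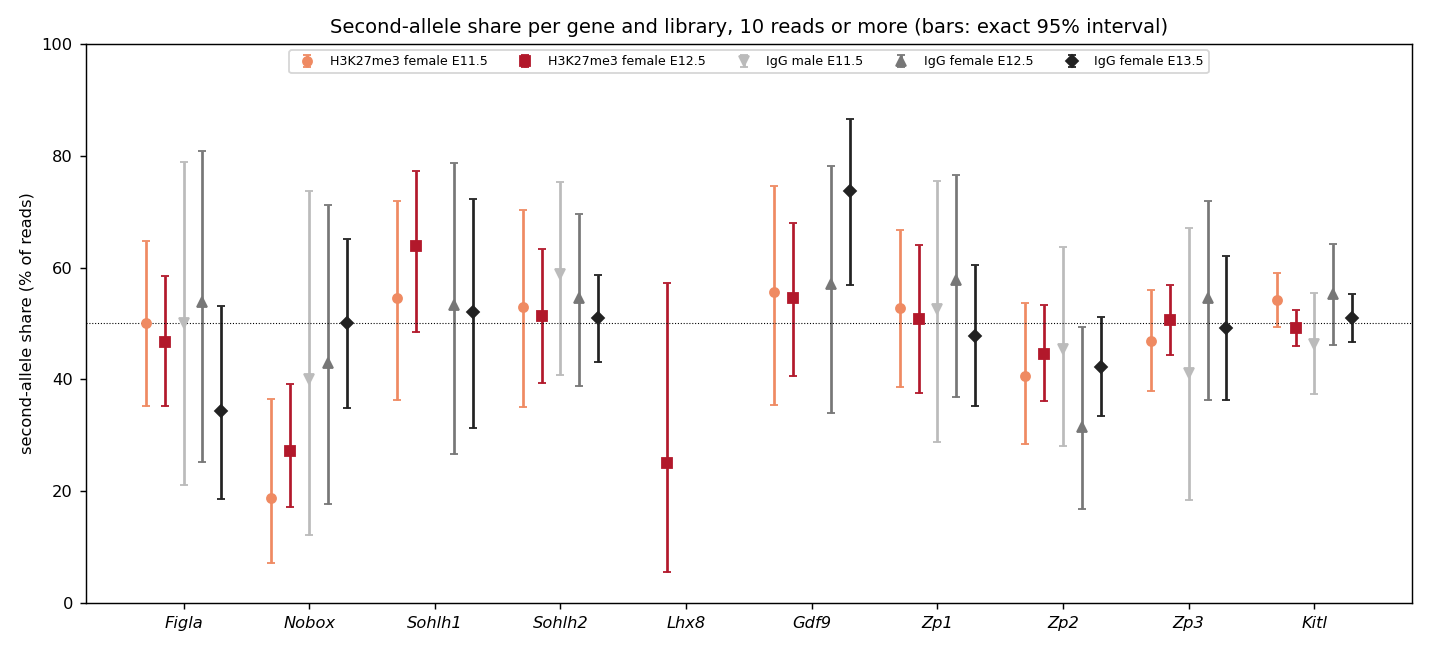
Share of reads on the second allele (percent) for each gene with at least 10 reads in a library, with exact 95% intervals, in the H3K27me3 libraries (orange and red) and the IgG libraries (grey to black). The Nobox points of both H3K27me3 libraries lie below the line at 50%, and those of Zp3 and Kitl lie near it.

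No other gene of the set passed the share test in either H3K27me3 library. Kitl had shares of 54.2% (E11.5) and 49.1% (E12.5), and Zp3 had 46.8% and 50.6%. Figla had 50% and 46.8%, and Sohlh2 52.9% and 51.4%. Sohlh1 had 54.5% and 63.8% (adjusted p = 0.998 and 0.276 in the exact binomial test). Zp2 was below even in all libraries, with 40.6% and 44.6% in H3K27me3 E11.5 and E12.5, against 45.5%, 31.4% and 42.2% in IgG E11.5, E12.5 and E13.5. Lhx8 had 3 of 12 reads on the second allele at E12.5, or 25% (5.49% to 57.2%).

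The surroundings of Nobox were examined after its share had been seen. Counting Nobox and the genes within 300 kb toward lower coordinates, 9 had at least 10 reads in H3K27me3 E12.5. Of these 9, Nobox included, 8 had a second-allele share below 50% in that library, where the median share of all genes was 50%. At E11.5 Olfr13 (70% of 10 reads) and Olfr435 (71.4% of 14) were above 50%, and the others were below. At E12.5, 2 of the 9 passed the share test toward the first allele, where 7.98% of all genes did, and Nobox was 1 of them. The other was Arhgef5, which encodes a guanine nucleotide exchange factor and is the nearest counted gene on that side, 14.4 kb from Nobox (chr6:43265644-43289320). It held 19.7% of 127 H3K27me3 reads on the second allele at E11.5 (13.2% to 27.7%) and 23.4% of 394 at E12.5 (19.3% to 27.8%). In IgG it held 47.2%, 42.9% and 50.9% at E11.5, E12.5 and E13.5. Its adjusted p was 1.11e-11 at E11.5 and 3.86e-27 at E12.5 in the exact binomial test. Fisher's exact test gave an adjusted p of 0.187 against IgG E12.5, 4.20e-08 against IgG E13.5 and 2.82e-09 against the summed IgG.

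Arhgef5, with more reads than Nobox, had the same division of levels. Its first allele was 2.79 times the summed IgG level at E11.5 (2.14 to 3.64) and 3.88 times at E12.5 (3.15 to 4.79), and its second allele was 0.717 (0.447 to 1.11) and 1.24 times (0.936 to 1.63). The 7 olfactory receptor genes farther out on that side did not pass the share test at E12.5.

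**Figure D4:**
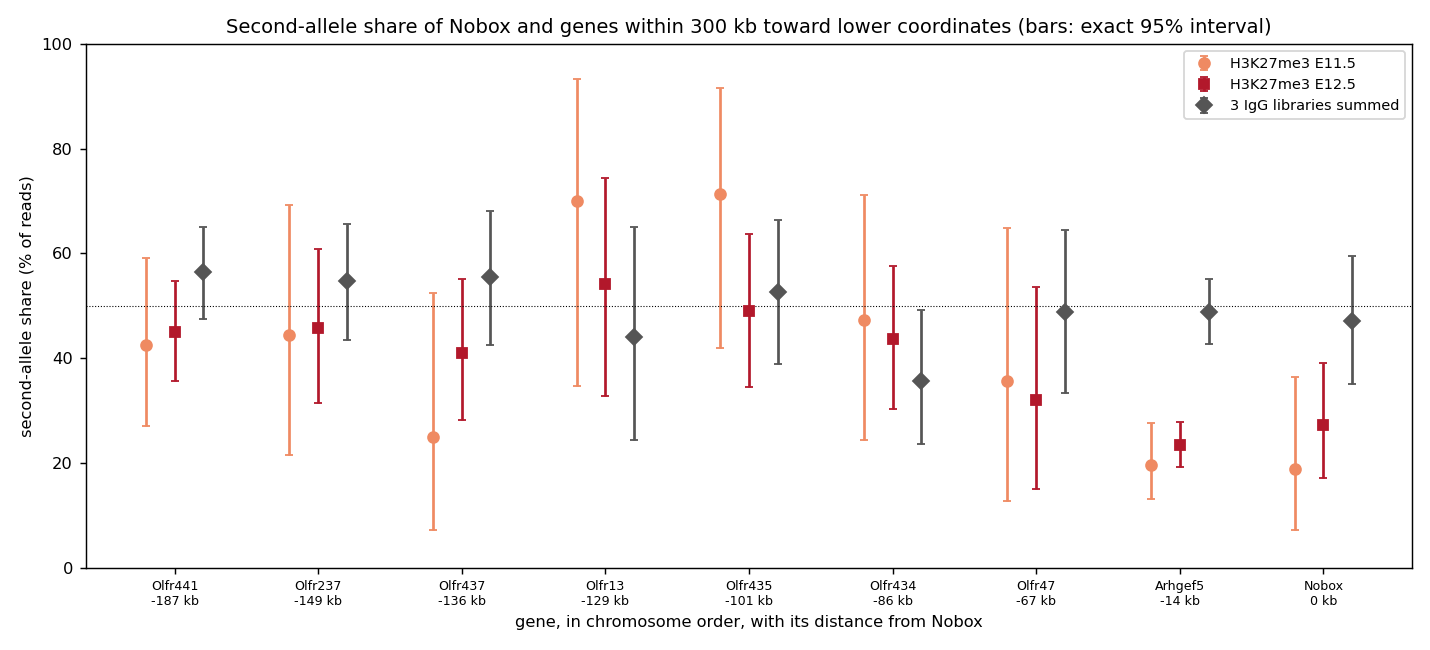
Share of reads on the second allele (percent, with exact 95% intervals) for Nobox and the 8 genes within 300 kb toward lower coordinates, in chromosome order, in H3K27me3 E11.5, H3K27me3 E12.5 and the summed IgG libraries. Arhgef5 and Nobox lie below the IgG point in both H3K27me3 libraries. So do Olfr441, Olfr237, Olfr437 and Olfr47, which did not pass the share test. Olfr13 and Olfr434 lie above the IgG point in both H3K27me3 libraries. Olfr435 lies above it at E11.5 and below it at E12.5.

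Of the nearest counted genes on either side of each gene, 19 are reported. Among them 4 were 2-fold above IgG at E12.5 and 6 were 2-fold lower (median log2 ratio -0.67), shares near the 15.2% and 29.5% of all genes. The 4 were Arhgef5 beside Nobox (1.47), Ssc4d beside Zp3 (1.38), Csl at 256 kb from Kitl (1.25) and Shroom1 beside Gdf9 (1.04). Zp3 and Ssc4d, 5.57 kb apart, were thus both higher, whereas Dtx2 on the other side of Zp3 had -0.71. Both neighbours of Figla were below it, with -1.71 for Dusp11 and -0.68 for Add2. The other 5 lower neighbours were Lcn9 beside Sohlh1, Aff4 beside Gdf9, Prpf19 beside Zp1, and 2 farther away. These 2 were Tyw3 at 246 kb from Lhx8 and Tmtc3 at 343 kb from Kitl. Kcnt1 (Sohlh1), Ccdc169 and Dclk1 (Sohlh2), Slc44a5 (Lhx8), Ptgdr2 (Zp1), Tmem159 and Anks4b (Zp2) were within 2-fold of IgG.

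Other genes of the oocyte and the follicle, listed with earlier results of these data known, were mixed. Of 19 other oocyte genes tested at E12.5, 4 were higher than IgG and 2 were lower (median log2 ratio -0.02, where that of all genes was -0.54). Over all genes 15.2% were higher and 29.5% lower at that stage. Of 17 tested at E11.5, 3 were higher and 2 lower (median 0.36), beside 17.2% and 29.7% of all genes. The highest at E12.5 were Zar1, a maternal RNA-binding factor, with 30.7 RPM in H3K27me3 and 8.58 in IgG, Mos, the kinase that holds the egg in meiosis, with 8.76 and 1.98, and Btg4, a maternal RNA decay factor, with 41.2 and 17.2. The lowest were Cpeb1, a regulator of translation of stored RNA (log2 ratio -1.11), Tle6, of the subcortical maternal complex (-1.04), and Ybx2, an RNA-binding protein of germ cells (-0.89).

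Of 9 genes that act with these factors in follicle formation, 3 were higher than IgG at E12.5 and 4 lower (median -0.93), beside 15.2% and 29.5% of all genes. At E11.5, 3 of 8 were higher and 3 lower (median -0.84), beside 17.2% and 29.7% of all genes. The 3 higher ones at E12.5 were Fst, the activin antagonist follistatin (log2 ratio 3.16), Jag1, a Notch ligand (1.47), and Foxl2, a granulosa cell transcription factor (1.45), which is also one of the somatic gonad markers. The lowest were Tcf3, a general helix-loop-helix partner (-1.39), Notch2, the receptor of granulosa cells (-1.34), and Foxo3, which holds primordial follicles dormant (-1.33). Kit, the germ cell receptor for KITL, had a log2 ratio of -1.07, whereas Kitl had 1.24.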

How the data were processed

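H3K27me3 and IgG CUT&RUN reads were analysed in 5 libraries of sorted PGCs, 1 per group. The authors deposited raw counts of reads for each gene and each of 2 alleles. They also deposited the second allele's fraction of these reads, which equals the second count divided by their sum. The deposited counts are not normalised. Per the submitters' processing notes, tools included Bowtie2 2.4.2, SAMtools 1.11, GATK, MACS2 2.2.7.1 and featureCounts, and the build was mm10. What each tool did, whether duplicates were removed and how alleles were assigned is not given here. Only reads over a strain variant can show their allele, so the counts are an unknown portion of the sequenced reads, and variant density affects levels. The E11.5 control was male, and all 10 genes are autosomal.

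Levels were scaled to 1000000 reads on chromosomes 1 to 19 (RPM). Poisson, Clopper-Pearson and conditional binomial 95% intervals were computed with scipy 1.17.1. Log2 ratios had a pseudocount of 1 RPM, which understates ratios of low genes, and 20 reads in the pair as a minimum. Shares were tested by two-sided exact binomial and Fisher tests over all genes with at least 10 reads, adjusted by Benjamini-Hochberg with a threshold of 0.05. Since PCR duplicates may remain, intervals and tests express counting error alone. The level rule and the binomial and Fisher tests were run on simulated data with planted changes. The changes were planted in genes with more reads than several of the 10 genes had, so such low counts were not covered. All 10 genes were named, with the nearest counted gene on each side apart from 1 that is not reported here, the 3 genes most like the one with the highest E12.5 ratio, and the 3 highest and 3 lowest of 2 lists. Arhgef5, its window and the genes named as exceptions were chosen after their values were seen. The members and lists were chosen with earlier results of these data known. H1foo was found as H1f8. Alternatives were median-of-ratios scaling, other pseudocounts and read minimums, and other IgG controls. The 3 labelled samples without a file were not analysed here.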

Additional observations from a re-analysis of the deposited data

Results flagged for a closer look

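Sohlh1, Gdf9 and Zp1 were above IgG of the same stage at E11.5 and below it at E12.5. The log2 ratio of H3K27me3 over IgG was 2.60 at E11.5 and -0.073 at E12.5 for Sohlh1, 1.02 and -0.31 for Gdf9, and 0.65 and -0.51 for Zp1. The difference between the stages was not tested, since each stage had 1 library of each kind. The controls differed too, male at E11.5 and female at E12.5. IgG levels of Sohlh1 were 1.47 RPM in E11.5 males and 9.90 in E12.5 females, and those of Gdf9 were 5.16 and 13.9. Those of Zp1 were 14.0 and 17.2, beside H3K27me3 levels of 22.5 at E11.5 and 11.8 at E12.5. With IgG E13.5 as the control, the E12.5 log2 ratios of Sohlh1, Gdf9 and Zp1 were 0.95, 0.64 and 0.04, on the same side as at E11.5.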

How the results depend on the processing

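No paired analysis was possible because each group had 1 library with a file, and the tests of shares compared reads of a pair of libraries, so no replicate could be left out either. With median-of-ratios scaling, the genes of the set higher than IgG at E12.5 numbered 4, with 4328 of all genes higher and 792 lower, and 1036 of all genes were lower at E11.5. Between the IgG libraries that scaling gave 0 genes of the set lower, and 980 of all genes higher and 531 lower. The 5 genes of the set higher at E11.5 became 3 with a minimum of 50 reads, because 2 of them were no longer tested. These were Sohlh1 (33 H3K27me3 and 2 IgG reads) and Gdf9 (27 and 7). The count was also 3 with IgG E13.5, with summed IgG and with IgG E12.5, the last chosen after seeing the data. With that control Gdf9 changed sign at E11.5 (log2 ratio -0.25). For E12.5 over E11.5, all genes higher and lower numbered 56 and 74 with a pseudocount of 2, 232 and 202 without a read minimum, and 31 and 72 with 50 reads. Between the IgG libraries, genes of the set that were lower numbered 2 with a pseudocount of 0.5, 0 with 2 and 0 with 50 reads, where 354 of all genes were higher and 584 lower. Sohlh1 had 25 reads in IgG E13.5 and 15 in IgG E12.5, so it was not tested with 50 reads. Shares tested against IgG E13.5 differed in 554 genes toward the first and 470 toward the second allele, and against summed IgG in 637 and 595. In the 8 settings run, Zp3 stayed 2-fold above IgG at E12.5, and Kitl did so in 7, with a log2 ratio of 0.99 against IgG E13.5. The cause of these shifts was not tested. Depth limits Lhx8, Sohlh1 and Gdf9, and the IgG shares of Nobox.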

Other observations

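Ssc4d, which encodes a scavenger receptor protein and lies beside Zp3, held 19.9% and 20.3% of its H3K27me3 reads on the second allele at E11.5 and E12.5. In IgG it held 31.7%, 47.2% and 32.4% at E11.5, E12.5 and E13.5, so its IgG reads were also uneven in 2 of the 3 libraries, unlike those of Arhgef5. Zp3 itself, 5.57 kb away, had 46.8% and 50.6% with H3K27me3.

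Gdf9 had 73.7% of 38 reads on the second allele in IgG E13.5 (interval 56.9% to 86.6%), a control library (adjusted p = 0.0665 in the exact binomial test). Its share was 54.5% of 55 reads in H3K27me3 E12.5.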
